A study of Homo sapiens with 16 samples.

Results

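The genes described are 50 that build or escort human RNA polymerase II (Pol II) through elongation and 3′-end formation: 13 genes with a POLR2 symbol, 8 elongation factors, 15 Integrator subunits and 14 cleavage and polyadenylation factors. They are all protein-coding genes whose symbols are INTS with a number, CPSF or CSTF with a number, or POLR2 with a letter, plus SUPT4H1, SUPT5H, SUPT6H, SUPT16H, NELFA, NELFB, NELFCD, NELFE, PCF11, SYMPK, FIP1L1, WDR33 and NUDT21. All 50 symbols were among the 11282 genes of the deposited table. The set was picked because CPSF1, INTS1 and SUPT6H were higher with KLF5 hairpins, so the KLF5 values below are a description and no test of them is offered as support.

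HCC70 is a widely used cell line from a human breast tumour of basal-like, triple-negative type. Its cells were infected with short hairpin RNA (shRNA) constructs, and the study asked which regulators shape the mix of cell states in such cells. Each construct had 2 libraries, numbered 1 and 2 in the labels, and the libraries of a construct carry different hairpin identifiers. The groups are KLF5, RBPJ, NFIB and FOXA1, each named for the transcription factor its hairpins target, then plko, titled after a lentiviral vector backbone, and last the 6 hairpin controls. Since the 2 plko libraries also differ in identifier, it is not known whether both hold the same empty vector, and plko values below are those of libraries so titled. The hairpin controls are shRFP, shLACZ and shLUC, named for genes that human cells lack, and all of these groups share the cell line and the infection. With 2 hairpins a target, an effect of the target and an effect of a hairpin cannot be told apart. The labels do not say that libraries came from separate cultures, so p-values measure only the spread between these samples. As hairpin identifiers differ within a construct, that spread mixes differences between hairpins with others that may be technical.

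Pol II transcribes protein-coding genes and most small nuclear RNA genes. Soon after initiation DSIF (SUPT4H1 with SUPT5H) and NELF hold it near the start of the gene, and after release SUPT6H and the FACT chaperone (SUPT16H with SSRP1) travel with it and handle nucleosomes. Integrator cuts nascent small nuclear RNAs and also ends transcription of many paused polymerases, while CPSF, CSTF and the CFIm and CFIIm factors read the poly(A) signal, cut the transcript and let a poly(A) tail be added.

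Promoter windows were looked at because members in 4 complexes stood apart in the KLF5 libraries. RefSeq promoter windows of build GRCh38.p14, 250 bases before to 50 after the start, were matched by symbol for 41 of the 50 genes. The 5 windows printed belong to members past the threshold in the KLF5 comparison below. CPSF1 and POLR2I also passed it but had no matched window, so no cleavage factor is printed. Capitals mark CCGGAA or its reverse complement TTCCGG, the core read by ETS factors. Each is written 5′ to 3′ along its gene: INTS1 at chr7:1504340-1504639 (minus strand), SUPT6H at chr17:28661955-28662254 (plus), POLR2E at chr19:1095326-1095625 (minus), POLR2H at chr3:184361460-184361759 (plus) and POLR2D at chr2:127858106-127858405 (minus).
INTS1: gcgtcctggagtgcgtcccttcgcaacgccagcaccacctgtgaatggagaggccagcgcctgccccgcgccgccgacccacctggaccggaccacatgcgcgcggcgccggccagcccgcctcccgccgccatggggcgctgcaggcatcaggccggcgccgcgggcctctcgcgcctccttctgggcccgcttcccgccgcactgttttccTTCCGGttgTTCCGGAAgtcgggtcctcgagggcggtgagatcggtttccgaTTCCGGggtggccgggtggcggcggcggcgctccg
SUPT6H: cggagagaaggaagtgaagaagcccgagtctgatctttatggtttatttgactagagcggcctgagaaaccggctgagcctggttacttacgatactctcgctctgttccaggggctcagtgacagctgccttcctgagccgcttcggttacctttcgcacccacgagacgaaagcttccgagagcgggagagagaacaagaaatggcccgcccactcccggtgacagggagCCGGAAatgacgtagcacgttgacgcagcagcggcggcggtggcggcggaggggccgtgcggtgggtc
POLR2E: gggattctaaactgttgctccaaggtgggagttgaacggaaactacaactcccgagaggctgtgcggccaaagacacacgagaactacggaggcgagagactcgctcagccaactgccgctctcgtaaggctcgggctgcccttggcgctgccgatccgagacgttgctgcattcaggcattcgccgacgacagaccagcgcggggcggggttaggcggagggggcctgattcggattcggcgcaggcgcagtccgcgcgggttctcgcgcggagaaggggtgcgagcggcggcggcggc
POLR2H: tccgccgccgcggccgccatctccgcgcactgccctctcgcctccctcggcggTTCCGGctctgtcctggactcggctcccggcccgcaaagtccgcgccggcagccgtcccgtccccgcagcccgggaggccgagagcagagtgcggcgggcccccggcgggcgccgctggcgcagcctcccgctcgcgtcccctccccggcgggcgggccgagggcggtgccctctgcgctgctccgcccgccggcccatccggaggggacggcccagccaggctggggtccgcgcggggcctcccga
POLR2D: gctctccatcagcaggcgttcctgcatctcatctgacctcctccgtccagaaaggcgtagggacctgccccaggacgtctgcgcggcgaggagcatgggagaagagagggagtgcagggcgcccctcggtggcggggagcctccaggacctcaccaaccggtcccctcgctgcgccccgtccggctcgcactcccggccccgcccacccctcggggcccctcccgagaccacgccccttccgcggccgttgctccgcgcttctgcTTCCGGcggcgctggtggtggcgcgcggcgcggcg

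The INTS1 window held 4 matches to the ETS core, 2 of them overlapping on opposite strands, the SUPT6H, POLR2H and POLR2D windows held 1 each and the POLR2E window none. Over the matched members, 26 of 41 windows (63.4%) held CCGGAA or TTCCGG, against 31.2% of the 8927 windows of tested genes and 22.7% of all 15843 protein-coding windows. The matches were spread over the complexes, in 6 of 8 elongation windows, 6 of 9 Pol II windows, 8 of 13 cleavage windows and 6 of 11 Integrator windows. The box CACCC or GGGTG, of the kind that KLF factors read, was in 61.0% of members' windows, 62.4% of those of tested genes and 62.9% of all. The GC box CCGCCC or GGGCGG was in 75.6%, 70.4% and 58.3% of the same sets, and TATAAA or TTTATA in 2.44%, 5.54% and 9.75%. Matches on both strands were counted, overlapping ones included. The windows of members had a median GC content of 63.7%, against 62.7% for all protein-coding windows. A match is a run of letters and not a site of binding.

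Libraries held 375713 (plko 1) to 3090666 (RBPJ 1) recovered reads, with a median of 1164801.5, and a member had a median of 45 reads in a library. Each targeted transcript was below the hairpin-control mean with its own hairpins, at 63.4% and 37.8% for KLF5, 89.6% and 17.7% for RBPJ, 71.0% and 12.6% for NFIB and 24.4% and 58.6% for FOXA1. RBPJ 1 lay within the range of the hairpin controls for RBPJ itself. All 13 genes listed as basal-like markers were measured, and the list also holds KRT7, KRT8, KRT18, KRT19 and EPCAM. KRT5 stood at 2084.87 to 4517.2, but KRT14 at 17.72 to 102.5 and ITGB4 at 8.82 to 25.13. Of the 6 markers of luminal and HER2 type cells 5 were measured: ESR1 and PGR, the hormone receptors, reached at most 10.71 and 6.15, but GATA3 stood at 99.96 to 289.33. These 5 summed to 289 to 343 in KLF5 libraries and 247 to 258 in plko libraries, above the 144 to 226 of the hairpin controls, and GATA3 itself read 289.33 and 241.52 in KLF5 libraries, against 141 ± 29.2 in the hairpin controls (adjusted p = 0.0134, limma). Of the markers of other cell types, 4 of 8 for fibroblasts were measured, and their summed signal was 35.5 to 43.2 in KLF5 libraries, 38.3 to 40.1 in NFIB libraries and 8.38 to 25.8 in the hairpin controls. For leukocytes 2 of 6 were measured, summing to 18.5 to 23.3 in KLF5 libraries, 8.82 to 26.0 in plko libraries and 21.6 to 34.3 in the hairpin controls. For endothelial cells 1 of 5 was measured. Libraries of plko and KLF5 were set apart from all others, with 7.5% and 11% of the 10826 tested genes past an adjusted p of 0.05 in limma against the hairpin controls, and no more than 3 genes for any other target. In the KLF5 and plko libraries the basal-like markers summed to 7630 to 7950 and 5390 to 7100, against 8350 to 10400 in the hairpin controls. They summed to 6400 to 14200 in RBPJ, 6740 to 11900 in NFIB and 8250 to 11400 in FOXA1 libraries. Each of these ranges also began below the hairpin controls. The part of these marker differences in the results below was not tested. In bulk RNA, fewer cells of a type and less RNA per cell cannot be told apart.

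Values are the deposited normalized signal, log2 fold changes are on the log2(signal + 1) scale with their standard error (SE), and errors of the hairpin controls are SD over 6 libraries. Because reads come from transcript 3′ ends, signals are compared between libraries and not between genes. Among the 50 genes 7 (14%) had an adjusted p under 0.05 in KLF5 against hairpin controls, 6 higher and 1 lower, against 11% of all genes tested (4.42% higher, 6.61% lower). Both KLF5 libraries lay outside the range of the hairpin controls for 16 members, 9 above and 7 below, against 27.7% of all genes (14.3% above, 13.4% below). The median log2 fold change of the 50 was 0.13 with KLF5 hairpins, against 0.05 over all genes. Since the choice used these libraries, nothing is read from these counts. Without KLF5 1 the members past the threshold were CPSF1, POLR2I and SUPT6H, and without KLF5 2 they were CPSF1, POLR2I and POLR2E.

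**Figure D1:**
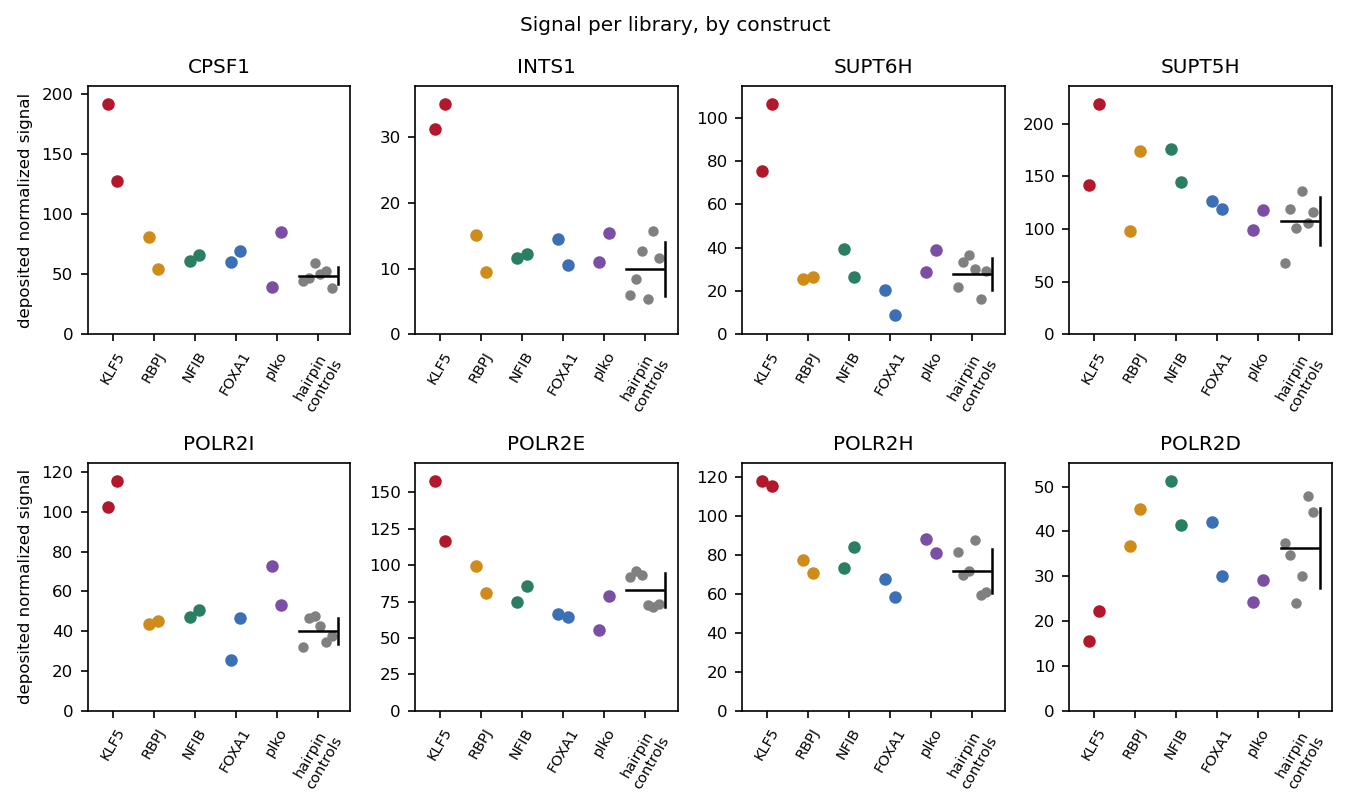
Deposited normalized signal (vertical axes, linear, from 0) of 8 genes, with 1 point for each library, by construct. The line and bar on the hairpin controls are the mean and SD of 6 libraries. Both KLF5 libraries lie above the other 14 for CPSF1, INTS1, SUPT6H, POLR2I, POLR2E and POLR2H, and both lie below them for POLR2D.

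Among the Pol II subunits, POLR2I (RPB9), POLR2E (RPB5) and POLR2H (RPB8) were higher and POLR2D (RPB4) was lower in both KLF5 libraries than in any other library. POLR2I (ENSG00000105258), a small subunit known for transcript fidelity and elongation, read 102.37 and 115.51 in KLF5 libraries, against a lowest, median and highest value of 32.3, 40.13 and 47.87 in the hairpin controls. The log2 fold change was 1.42 ± 0.24 (SE). In plko libraries POLR2I read 72.8 and 53.28, also above every hairpin control, and the difference missed the threshold (log2 fold change 0.63 ± 0.24, adjusted p = 0.106 in limma). RBPJ libraries read 43.76 and 45.05, NFIB 47.15 and 50.62 and FOXA1 25.68 and 46.56, each group with a value within the range of the controls.

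POLR2E (ENSG00000099817), shared by Pol I, Pol II and Pol III, read 157.82 and 116.68 in KLF5 libraries, against 71.22, 82.64 and 95.82 (lowest, median, highest) in the hairpin controls, a log2 fold change of 0.71 ± 0.21. POLR2H (ENSG00000163882), also shared by all 3 polymerases, read 118.01 and 115.51 in KLF5 libraries, against 59.24, 70.64 and 87.81. Its log2 fold change was likewise 0.71 ± 0.19. Both of these shared subunits stood higher in both KLF5 libraries, with no overlap with the controls. In the other libraries POLR2E read 99.46 and 80.61 in RBPJ, 74.49 and 85.64 in NFIB, 66.5 and 64.59 in FOXA1 and 55.16 and 78.69 in plko, so that both FOXA1 values lay below every hairpin control. POLR2H read 77.58 and 70.65 in RBPJ, 73.12 and 83.95 in NFIB, 67.81 and 58.58 in FOXA1 and 88.25 and 81.17 in plko, close to its controls.

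POLR2D (ENSG00000144231), which with POLR2G forms the stalk of the enzyme, read 15.64 and 22.17 in KLF5 libraries from 22 and 19 reads, against 23.94, 36.07 and 47.9 in the hairpin controls. It read 36.8 and 45.05 in RBPJ libraries, 51.25 and 41.34 in NFIB, 42.14 and 30.04 in FOXA1 and 24.27 and 29.12 in plko, all above both KLF5 values. Its KLF5 log2 fold change of -0.89 ± 0.27 is opposite in sign to the 0.36 ± 0.22 of its stalk partner POLR2G, which read 104.5 and 116.68 in KLF5 libraries and 86.8 ± 15.3 in the hairpin controls. POLR2C, a subunit of the assembly platform, also lay below the hairpin controls in both KLF5 libraries, at 58.29 and 53.67 against 84.8 ± 7.77. The second-largest subunit POLR2B was above them, at 172.03 and 137.68 against 110.0 ± 10.9, and the largest, POLR2A, was at 26.3 and 29.17 against 20.35 to 29.62. POLR2G, POLR2C, POLR2B and POLR2A all missed the threshold with KLF5 hairpins. As a description, subunits of the same enzyme thus differed in direction in the KLF5 libraries.

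POLR2L (ENSG00000177700, RPB10), another subunit common to the 3 polymerases, was the member that fell furthest in plko libraries. It read 48.54 and 118.96 there, from 22 and 192 reads, against 170.09, 182.02 and 246.49 in the hairpin controls, whose mean was 199 ± 35.2. The fall of 1.36 ± 0.28 on the log2 scale passed the test (adjusted p = 0.00537, limma), but without plko 1 it was 0.72 and did not (adjusted p = 0.39, in a range of 4.0e-04 to 0.39 over 18 alternatives). POLR2L also read below the lowest hairpin control in KLF5 libraries (139.33 and 124.84), in FOXA1 libraries (132.34 and 160.72), in RBPJ 1 (108.91) and in NFIB 1 (133.94), and above it in RBPJ 2 (237.08) and NFIB 2 (206.29).

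Of the 48 members with a read in every library, POLR2K (ENSG00000147669), a zinc-binding subunit, had the smallest ratio of highest to lowest library, 1.44, and ran from 260.33 to 374.59. It read 291.46 and 313.86 in KLF5 libraries, 346.61 and 374.59 in RBPJ, 324.59 and 347.61 in NFIB, 297.59 and 342.47 in FOXA1 and 260.33 and 348.83 in plko, against 310.0 ± 19.9 in the hairpin controls. Both RBPJ values lay above every hairpin control. POLR2F (ENSG00000100142), another shared subunit, read 344.07 and 255.52 in KLF5 libraries, 178.77 and 273.59 in RBPJ, 273.34 and 229.91 in NFIB, 115.88 and 261.36 in FOXA1 and 227.24 and 191.45 in plko, against 194.04, 244.86 and 290.2 in the hairpin controls. For POLR2F, FOXA1 1 lay below every hairpin control and FOXA1 2 within their range.

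**Figure D2:**
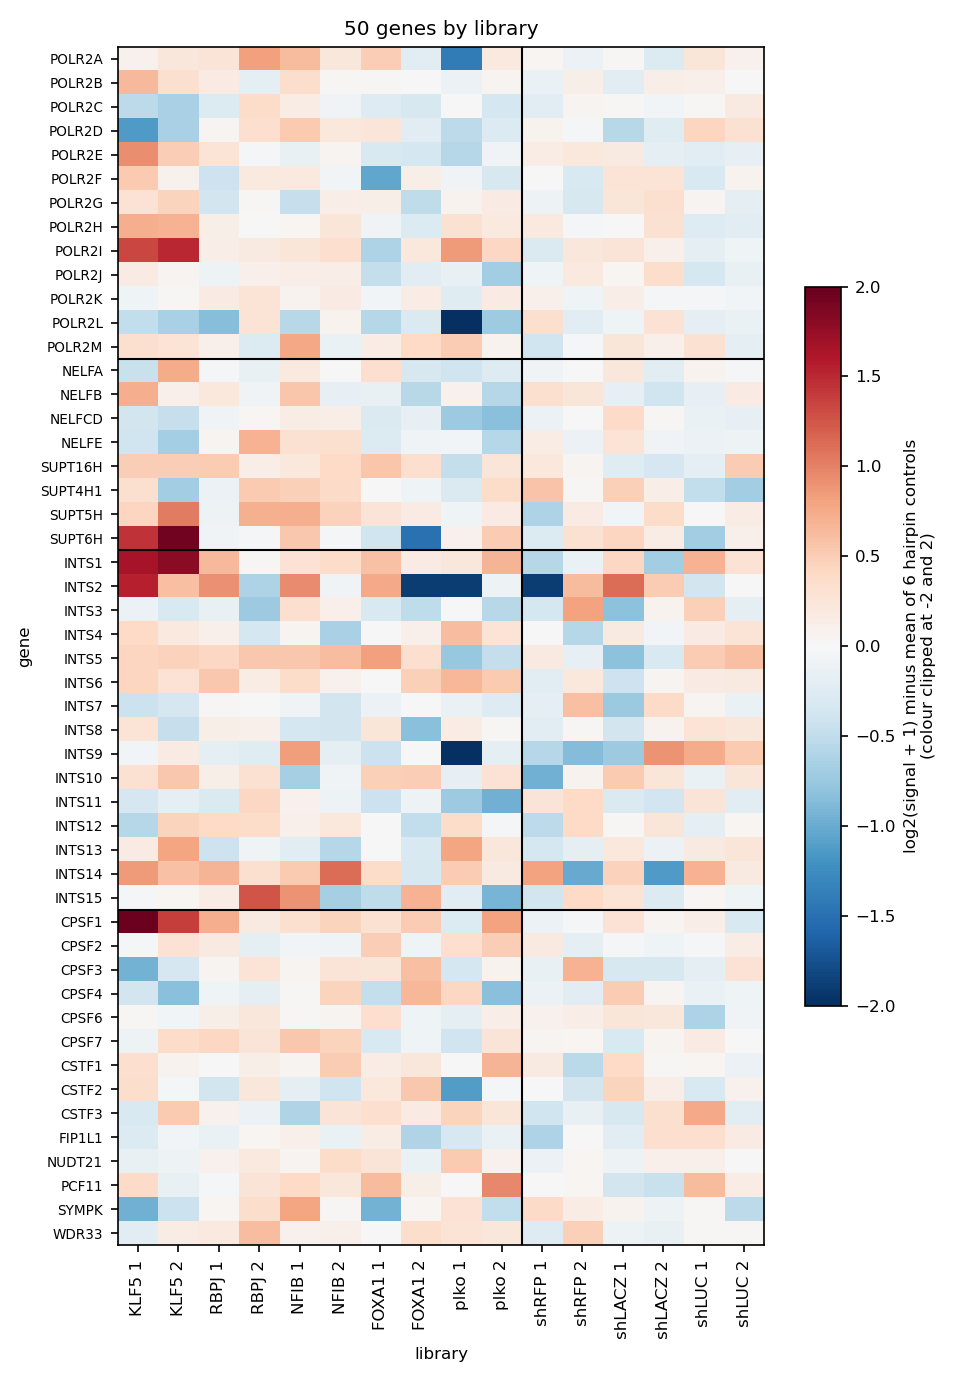
Each row is a gene, grouped from the top as Pol II, elongation, Integrator and cleavage factors, and each column is a library. Colour is log2(signal + 1) minus the mean of the 6 hairpin controls, clipped at -2 and 2. CPSF1, INTS1, SUPT6H and POLR2I are dark red in both KLF5 libraries and POLR2L and POLR2A are dark blue in plko 1, while INTS2 and INTS9 vary over much of the scale on few reads.

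Among the elongation factors, SUPT6H (ENSG00000109111), a histone chaperone that binds elongating Pol II, read 75.35 and 106.17 in KLF5 libraries from 106 and 91 reads. The hairpin controls read 16.39, 29.62 and 36.61 (lowest, median, highest) from 26 to 43 reads. The KLF5 mean was 3.24 times that of the hairpin controls, a log2 fold change of 1.69 ± 0.31. Both KLF5 libraries were far above the other 14, of which NFIB 1 was the highest at 39.63.

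In FOXA1 libraries SUPT6H read 20.41 and 9.01, the second value from 6 reads and below every hairpin control. The log2 fold change of -0.94 ± 0.31 missed the threshold (adjusted p = 0.559, unadjusted p = 0.00611, limma) and was -0.39 without FOXA1 2. In RBPJ libraries SUPT6H read 25.61 and 26.55, in NFIB libraries 39.63 and 26.58 and in plko libraries 28.68 and 39.03, against 28.0 ± 7.48 in the hairpin controls.

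SUPT5H (ENSG00000196235), the large DSIF subunit, read 141.47 and 218.18 in KLF5 libraries and 175.62 and 144.7 in NFIB libraries, against 68.0, 110.79 and 136.0 in the hairpin controls. All 4 of these values lay above the controls. For NFIB, which the choice of genes did not use, the log2 fold change was 0.59 ± 0.24 with an unadjusted p of 0.022, and it missed the threshold (adjusted p = 0.71, limma). In RBPJ libraries SUPT5H split, at 97.72 and 173.54, and it read 126.41 and 118.66 in FOXA1 and 99.28 and 118.34 in plko, within the range of the controls. Its partner SUPT4H1 read 34.12 and 16.33 in KLF5 libraries, 38.27 and 35.86 in NFIB libraries and 28.6 ± 9.85 in the hairpin controls.

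Of the NELF subunits, NELFCD (ENSG00000101158) and NELFE lay below the hairpin controls in both KLF5 libraries. NELFCD read 105.21 and 99.17 there and NELFE 56.87 and 46.67, against 137 ± 20.8 and 76.0 ± 9.46 in the hairpin controls. NELFA split in KLF5 libraries, at 23.46 and 54.84 against 32.4 ± 3.45, and NELFB read 45.5 and 29.17 against 27.5 ± 5.51. None of the NELF members passed the threshold with KLF5 hairpins, and they showed no common direction there.

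NELFCD fell in plko libraries, where it read 81.63 and 76.21 from 37 and 123 reads, against 121.78, 131.17 and 177.4 in the hairpin controls. The log2 fold change was -0.78 ± 0.18 (adjusted p = 0.01, limma), and without plko 1 it was -0.83 with an adjusted p of 0.0941, in a range of 0.00754 to 0.0941 over 18 alternatives. Both plko values were the lowest of the 16, below the KLF5 libraries and below FOXA1 at 111.93 and 121.67. RBPJ read 130.04 and 140.83 and NFIB 151.7 and 148.91, within the range of the controls. SUPT16H, the large FACT subunit, read 112.32 and 113.17 in KLF5 libraries, 57.36 and 94.8 in plko libraries and 81.5 ± 19.2 in the hairpin controls.

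**Figure D3:**
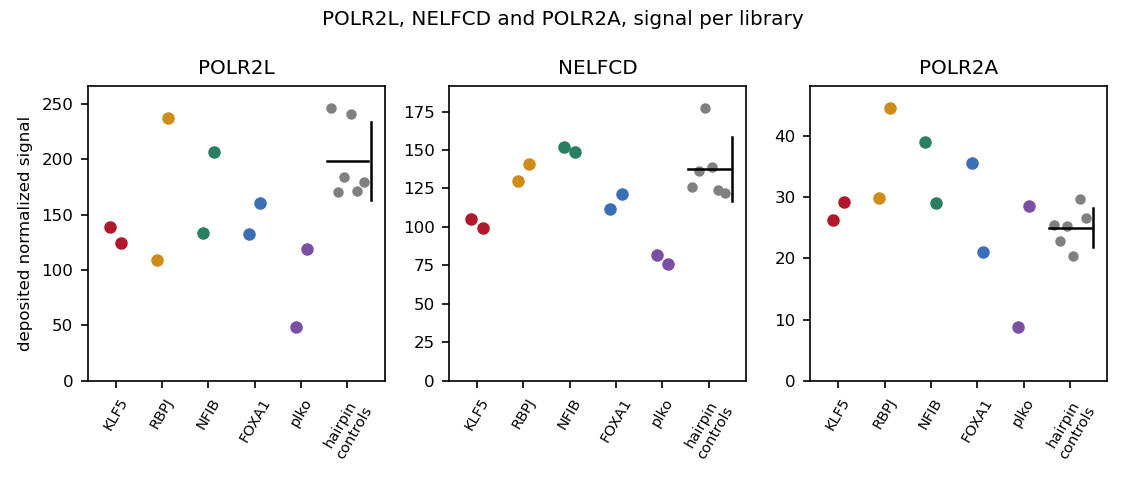
Deposited normalized signal (linear axes from 0) of POLR2L, NELFCD and POLR2A, 1 point for each library, with the mean and SD of the 6 hairpin controls. Both plko libraries lie below every hairpin control for POLR2L and NELFCD, and plko 1 alone is low for POLR2A, on 4 reads.

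Among the Integrator subunits, INTS1 (ENSG00000164880), the largest scaffold of the complex, was the only member of its complex past the threshold in any of the 5 comparisons, and it was in the KLF5 one. It read 31.28 and 35.0 in KLF5 libraries from 44 and 30 reads, against 5.35, 9.98 and 15.76 in the hairpin controls from 5 to 25 reads. The KLF5 mean was 3.33 times that of the hairpin controls (log2 fold change 1.73 ± 0.37). No other library exceeded 15.76, with plko at 11.03 and 15.49, FOXA1 at 14.48 and 10.51, NFIB at 11.62 and 12.23 and RBPJ at 15.17 and 9.48.

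The endonuclease INTS11 read 17.77 and 19.83 in KLF5 libraries and 13.24 and 11.15 in plko libraries, against 23.1 ± 5.56 in the hairpin controls. Both plko values lay below every hairpin control, and the log2 fold change of -0.84 ± 0.29 missed the threshold (adjusted p = 0.0771, limma). INTS13 (ENSG00000064102) read 62.56 and 96.84 in KLF5 libraries, 41.52 and 52.63 in RBPJ, 47.83 and 37.12 in NFIB, 55.96 and 45.06 in FOXA1 and 97.07 and 65.06 in plko, against 43.35, 57.21 and 65.99 in the hairpin controls. INTS8 (ENSG00000164941), a scaffold that ties Integrator to the phosphatase PP2A, read 53.32 and 31.5 in KLF5 libraries, 47.74 and 46.94 in RBPJ, 34.17 and 33.75 in NFIB, 52.01 and 24.03 in FOXA1 and 48.54 and 44.61 in plko, against 33.79, 45.18 and 52.94. For INTS13 and INTS8 no group had both values outside the controls' range on the same side.

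INTS6 read above every hairpin control in both KLF5 libraries (33.41 and 30.34) and both plko libraries (39.71 and 35.94), against 24.9 ± 4.22 in the hairpin controls, and neither comparison passed the threshold. The least measured subunits were INTS2 and INTS9, the partner of INTS11, with no read in some libraries and at most 9.95 and 6.43, so no fold is given for them. In plko 1, where 3 reads are worth 6.62, INTS2 and INTS9 both had no read.

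Among the cleavage factors, CPSF1 (ENSG00000071894), the large scaffold of the complex that recognises the poly(A) signal, read 191.23 and 127.18 in KLF5 libraries from 269 and 109 reads. The hairpin controls read 38.78, 48.52 and 59.13 from 39 to 84 reads. The KLF5 mean was 3.27 times that of the hairpin controls (log2 fold change 1.67 ± 0.25), and it stood 1.41 above plko on the log2 scale. CPSF1 was also above every hairpin control in both NFIB libraries (60.82 and 65.81) and both FOXA1 libraries (59.91 and 69.09), and it split in RBPJ (80.81 and 54.53) and plko (39.71 and 84.88). None of these 4 comparisons passed the threshold, with log2 fold changes of 0.45 ± 0.25 for RBPJ, 0.38 ± 0.25 for NFIB, 0.41 ± 0.25 for FOXA1 and 0.26 ± 0.25 for plko.

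The other subunits of the CPSF core did not share this. CPSF3, the nuclease that cuts the transcript, read 14.22 and 22.17 in KLF5 libraries, against 29.4 ± 9.61 in the hairpin controls, and CPSF4, which reads the poly(A) signal with WDR33, was at 14.93 and 10.5 against 19.9 ± 4.24. Both lay below every hairpin control but missed the threshold. For CPSF3 the lowest control was 22.49, close to KLF5 2, and the CPSF4 values rest on 21 and 9 reads. WDR33 read 56.16 and 72.34 in KLF5 libraries against 66.3 ± 13.0, CPSF2 58.29 and 72.34 against 59.2 ± 5.93 and FIP1L1 22.75 and 26.84 against 28.5 ± 6.87. The scaffold SYMPK read 7.82 and 11.67 in KLF5 libraries against 16.4 ± 3.42.

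Of the CFIm subunits, which steer poly(A) site choice, CPSF7 (ENSG00000149532) read 173.57 and 161.99 in NFIB libraries and 158.88 and 143.2 in RBPJ libraries, against 95.74, 123.14 and 133.61 in the hairpin controls. Both pairs lay above the controls, and the NFIB log2 fold change of 0.49 ± 0.2 had an unadjusted p of 0.0211 and an adjusted p of 0.71 (limma). KLF5 libraries were at 110.9 and 154.01, FOXA1 at 96.12 and 112.65 and plko at 90.45 and 143.13. NUDT21 (ENSG00000167005), the RNA-binding CFIm subunit, read 177.72 and 183.18 in KLF5 libraries, 208.86 and 225.7 in RBPJ, 204.32 and 253.96 in NFIB, 234.39 and 178.74 in FOXA1 and 282.4 and 208.18 in plko, against 181.04, 198.84 and 210.95 in the hairpin controls. No group had both NUDT21 values outside the controls' range on the same side.

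With RBPJ, NFIB and FOXA1 hairpins no member passed the threshold in limma, nor in edgeR or DESeq2 on recovered reads. The targeted transcripts missed it in limma too, at log2 fold changes of -1.26 (RBPJ), -1.72 (NFIB) and -1.32 (FOXA1). Their adjusted p were 0.22, 0.164 and 0.178 (limma). These comparisons could thus miss changes of that size, and the lack of calls does not show that members were unchanged. Over all genes the share past it was 0.0277% for RBPJ and 0.00924% for each of NFIB and FOXA1. At an unadjusted p under 0.05, limma gave 0 of 50 members for RBPJ, 2 for NFIB (CPSF7 and SUPT5H) and 1 for FOXA1 (SUPT6H), against 6.01%, 6.53% and 6.96% of all genes. Both libraries lay outside the range of the hairpin controls for 3 members with RBPJ (POLR2A, POLR2K and CPSF7, all above), 4 with NFIB (CPSF1, CPSF7, NELFE and SUPT5H, all above) and 5 with FOXA1 (CPSF1 above, POLR2C, POLR2E, POLR2L and NELFCD below), against 8.22%, 9.44% and 10.4% of all genes. Split by direction, the shares of all genes above and below were 4.19% and 4.03% for RBPJ, 4.97% and 4.47% for NFIB and 4.58% and 5.83% for FOXA1. The members' shares, 6 to 10%, are close to this background.

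In plko libraries, 2 members passed the threshold, POLR2L and NELFCD, both lower, against 7.5% of all genes (1.88% higher, 5.63% lower). Both plko libraries lay outside the range of the hairpin controls for 8 members, INTS4, INTS6, POLR2I and CPSF2 above and INTS11, POLR2L, NELFA and NELFCD below, against 22.3% of all genes (9.94% above, 12.3% below). At an unadjusted p under 0.05 there were 7 members, against 23.0% of all genes. The median log2 fold change of the 50 was 0.11 for RBPJ, 0.17 for NFIB, 0.01 for FOXA1 and -0.05 for plko, against 0.03, 0.04, 0.00 and 0.01 over all genes. The FOXA1 and plko medians changed sign under some other settings, the first between -0.07 and 0.01 and the second between -0.08 and 0.07. All comparisons share the 6 hairpin controls.

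**Figure D4:**
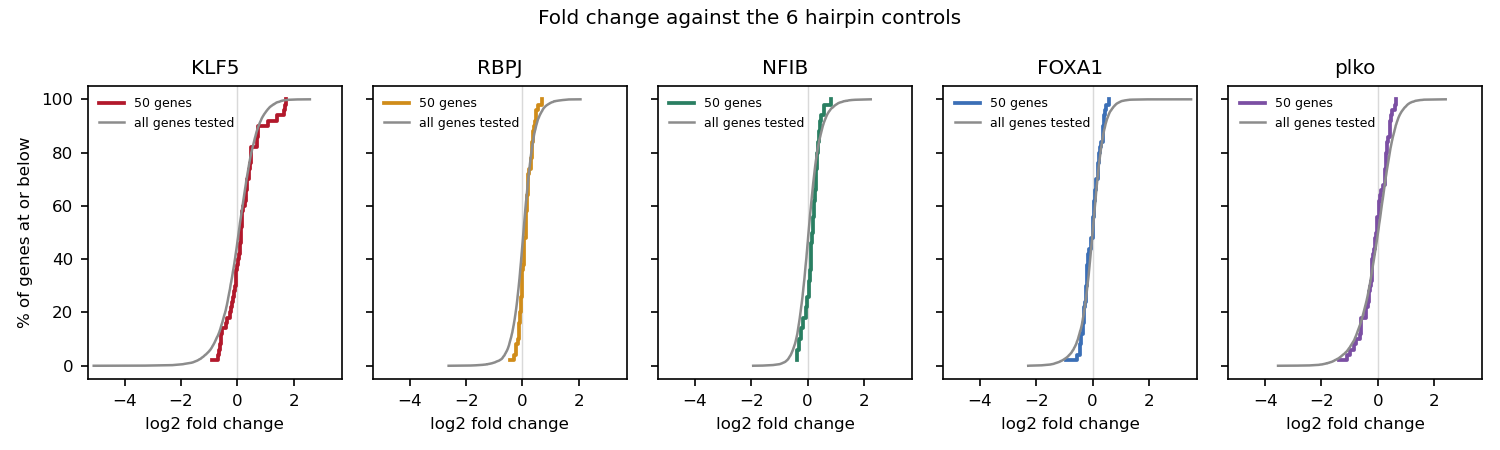
Cumulative share of genes (vertical axis, %) at or below each log2 fold change (horizontal axis), for each construct against the 6 hairpin controls. Coloured steps are the 50 genes and the grey line is all 10826 genes tested. At the upper end for KLF5, 4 of the 50 that passed the threshold lie between 1.42 and 1.73. For NFIB 74% of the 50 lie above 0, against 54.4% of all genes, and for RBPJ 68% against 54.3%. The shares are closer for FOXA1 (52% against 49.9%), and for plko that of the 50 is the lower (44% against 50.7%). These differences in share were not tested.

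Among related factors outside the 50, described with KLF5 hairpins and tested with plko, few passed the threshold. Of 16 genes of P-TEFb, 7SK and the super elongation complex, none passed with KLF5 in limma (2 at an unadjusted p under 0.05), and MEPCE, which caps 7SK RNA, fell in plko libraries (13.24 and 12.39 against 27.1 ± 6.18, adjusted p = 0.0354, limma). Of 17 other elongation genes TCEA2 was higher and SSRP1 lower with KLF5. SSRP1, the partner of SUPT16H in FACT, read 76.78 and 87.51 in KLF5 libraries, against 142 ± 13.8 in the hairpin controls, while SUPT16H read above its controls' mean.

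Of 16 further 3′-end factors RPRD2 and RBBP6 were higher and CLP1 lower with KLF5. CLP1, the CFIIm partner of PCF11, read 21.33 and 11.67 in KLF5 libraries against 40.1 ± 7.93, and PCF11 itself 29.15 and 19.83 against 22.8 ± 6.7. RBBP6, a cleavage factor that binds the core, rose in plko libraries, at 125.75 and 133.83 against 83.5 ± 7.81 (log2 fold change 0.64 ± 0.19, adjusted p = 0.04, limma), and its KLF5 log2 fold change was also 0.64 ± 0.19, from 121.56 and 138.84.

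Of 11 tested Integrator partners and snRNA gene activators, PPP2R1A, the PP2A scaffold, was higher with KLF5 (400.94 and 373.36 against 241 ± 38.3), and SNAPC2 fell with plko (19.86 and 23.54 against 43.6 ± 10.7, adjusted p = 0.0379, limma). Mediator had 2 of 32 higher (MED15 and MED30) and 1 lower (MED9) with KLF5. MED15 read 222.51 and 220.52 in KLF5 libraries, against 111 ± 11.5 in the hairpin controls. The general transcription factors had 2 of 29 higher (TAF10 and TAF6) and 2 lower (GTF2B and GTF2H5) with KLF5, and TAF7 rose with plko (185.32 and 105.95 against 82.9 ± 6.52, adjusted p = 0.0287, limma). Of 19 subunits of Pol I and Pol III alone, POLR1E was lower with KLF5, at 14.22 and 8.17 against 28.3 ± 5.53. Without plko 1 none of MEPCE, RBBP6, SNAPC2 and TAF7 passed (adjusted p 0.241, 0.244, 0.381 and 0.689, limma), and MEPCE, RBBP6 and SNAPC2 missed the threshold in 9, 9 and 8 of 18 alternatives. With KLF5, TCEA2 missed the threshold in 9 of 20 alternatives, MED30 and GTF2B in 6 each, RBBP6 in 4, and GTF2H5, TAF6, PPP2R1A and POLR1E in 2 each and CLP1, SSRP1 and TAF10 in 1 each, while MED9 passed in 13 of 19. MED15 and RPRD2 passed in all 20. Beside these counts, 11% of all genes passed the threshold with KLF5 and 7.5% with plko.

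**Figure D5:**
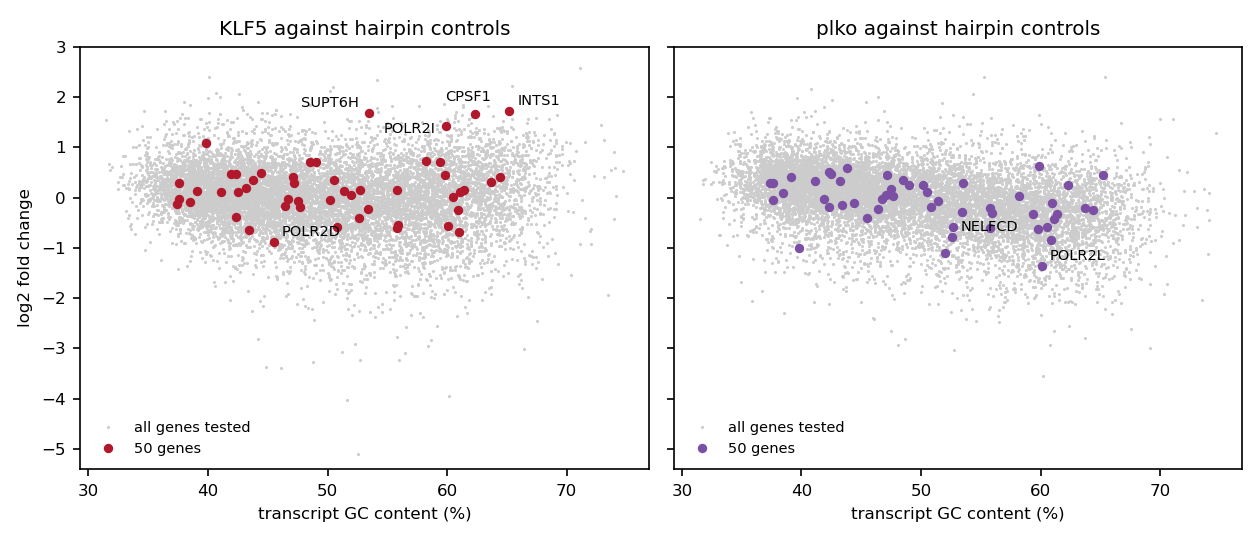
Log2 fold change (vertical axes) against transcript GC content in % (horizontal axes) for KLF5 and for plko against the hairpin controls. Grey points are all genes tested with a GC value and coloured points are the 50 genes. In plko the fold changes slope down with GC (Spearman's rho -0.4 over 10810 genes and -0.38 over the 50), and in KLF5 they do not (-0.08 and 0.12).

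Fold changes in plko moved with the GC content of the transcript, with a Spearman's rho of -0.4 across 10810 genes and -0.38 across the 50. The same correlations were -0.21 and -0.26 in FOXA1, 0.12 and 0.18 in NFIB and -0.02 and 0.08 in RBPJ. These are descriptions across genes of the same libraries. With each library's trend on GC content removed, an alternative chosen after seeing the data, POLR2L and NELFCD still passed the threshold in plko and POLR2I passed it as well, higher (log2 fold change 0.96, adjusted p = 0.024, limma, in a range of 0.024 to 0.723 over 18 alternatives). In KLF5 the same correlations were -0.08 and 0.12. With coding length in place of GC content they were 0.17 and 0.29 in KLF5. They were 0.19 and 0.26 in FOXA1, 0.15 and 0.21 in plko, 0.09 and 0.14 in RBPJ and 0.05 and 0.13 in NFIB. CPSF1, INTS1, SUPT6H and POLR2I had 62.3%, 65.2%, 53.5% and 59.9% GC. Their coding parts had 4329, 6570, 5178 and 375 bases. The part of coding length in their KLF5 values was not tested. With the GC trends removed, 8 members passed the threshold with KLF5 and 0 with RBPJ, NFIB or FOXA1.

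Exons of 29 members overlap another gene in GENCODE release 29, and 18 of those overlap a gene of the deposited table. Use of strand in counting is not stated, so reads of such a pair may be split. The partners given here lie on the opposite strand. ADCK5 beside CPSF1 read 1.42 and 5.83 in KLF5 libraries, against 2.07 ± 1.67 in the hairpin controls, at most 4.79. These KLF5 values rest on 2 and 5 reads, and ADCK5 was too low to be tested. SDF2 beside SUPT6H read 91.7 and 95.67 in KLF5 libraries against 93.9 ± 9.4. TBCB beside POLR2I read 531.74 and 567.04 against 439 ± 62.5, ARHGAP45 beside POLR2E read 6.4 and 1.17 against 7.31 ± 6.2, and CD151 beside POLR2L read 141.2 and 135.69 in plko libraries against 220.0 ± 18.8. TBCB in KLF5 libraries and CD151 in plko libraries thus stood on the same side of their controls' mean as the member beside them. CD151 itself passed the threshold in plko (adjusted p = 0.0185, limma). In KLF5 libraries CD151 read 304.26 and 275.35, above every hairpin control, while POLR2L lay below every hairpin control there. POLR2J has near-identical copies, and its values are uncertain for that reason too.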

How the data were processed

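RNA was taken from HCC70 cells in 96-well plates with a kit made for small inputs, and 3′ cDNA was barcoded and amplified by in vitro transcription in the CEL-Seq manner, per the labels' protocols. Some libraries were run again for low representation, per the same protocols. The labels name neither those libraries nor the barcoding batches. What the authors deposited is a table of normalized signal for 11282 genes, made on build GRCh37 according to the submitters' processing notes. For the aligner, the counter and the annotation, names were not given in the sources used here. A further 2 columns, which no label describes, were left out. Whole reads were recovered in 100% of values within 0.05 of a read. Symbols were found for 11259 identifiers.

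The test was limma 3.58.1 in R 4.3.3 with a mean-variance trend on log2(signal + 1), with 6 levels (4 targets, plko and the 6 hairpin controls) over 16 libraries, 2-sided, for 10826 genes with a signal of at least 5 in at least 2 libraries (456 left out). All 50 members passed this filter, 5 of them (INTS2, INTS5, INTS9, INTS14 and INTS15) with a signal under 5 in some library. P-values were adjusted by Benjamini-Hochberg over all 10826 genes, with a threshold of 0.05. Alternatives were edgeR 4.0.16 and DESeq2 1.42.0 on recovered reads, other pseudocounts, filters, scalings and controls, and leaving out each library. The scripts were tested on simulated data. Both libraries of every construct differed from each other beyond counting noise (chi-square per degree of freedom 1.97 to 18.8), so all 16 were kept.

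Genes given in every library were CPSF1, INTS1, SUPT6H, members past the threshold in any comparison and the 2 members of each complex with the highest mean. Other members are named with their values or fold only where a sentence on their complex needs them. Members, gene lists and motifs were chosen with earlier results of these data known. The floor of 3 reads a library covers counting error only.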

Additional observations from a re-analysis of the deposited data

Results flagged for a closer look

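Among the 6 hairpin controls, 1 library stood apart from the other 5 for 6 of 73 genes screened, the 50 members and 23 genes of the other lists that passed the threshold in a comparison. In each the gap to the next library, as a share of the whole range, was above the 95% critical value of Dixon's test for 6 samples, and chance gives such a gap in about 1 in 20 groups. NELFCD, the NELF subunit that fell in plko libraries, read 177.4 in shLACZ 1, and the other 5 lay between 121.78 and 139.21 (gap 0.687). CPSF4 read 28.16 in shLACZ 1 and 16.77 to 20.35 in the others (gap 0.686). WDR33 read 91.03 in shRFP 2 and 54.4 to 66.67 in the others (gap 0.665). Outside the 50, PPP2R1A read 165.12 in shLUC 1 and 242.24 to 271.9 in the others (gap 0.722). TAF6 read 84.6 in shLACZ 2 and 107 to 116.19 in the others (gap 0.709). COL1A1, a collagen gene among the fibroblast markers, read 25.84 in shLUC 1 and 6.8 to 11.26 in the others (gap 0.766).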

How the results depend on the processing

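No named gene's fold change past the threshold reversed its direction under an alternative. The median log2 fold change of the 50, which has no test, changed sign for FOXA1 (0.01, and -0.07 without FOXA1 1) and plko (-0.05, with 0.07 without plko 1 and 0.01 with GC trends removed). With KLF5 hairpins 7 members passed the threshold, 5 with all 8 control libraries as controls, 7 with edgeR, 8 with DESeq2, 8 with TMM scaling in limma and 10 with only the libraries of the comparison. Leaving out 1 library gave 3 to 8, with 3 without KLF5 1 and 3 without KLF5 2. CPSF1 and POLR2I passed in all 20 alternatives, SUPT6H and POLR2E in 19, INTS1 in 18, POLR2H in 17 and POLR2D in 14. The choice of genes used these KLF5 libraries, so such counts describe how the fits differ and are no support for the members. In plko libraries, 2 members passed under every alternative except without plko 1 (0 members, 7 at an unadjusted p under 0.05 in limma), without plko 2 (3, POLR2A added) and with GC trends removed (3, POLR2I added), so leaving out 1 library gave 0 to 3. Over all genes plko counts moved more, with 812 past the threshold, 131 without plko 1, 1115 without plko 2, 382 in edgeR, 496 in DESeq2 and 337 with GC trends removed. KLF5 counts over all genes were 1194, with 581 against all 8 controls, 365 without KLF5 1 and 503 without KLF5 2. For these differences the cause was not tested, beyond the smaller number of libraries where 1 is left out. RBPJ, NFIB and FOXA1 gave 0 members under every alternative.

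With a replicate block on the label numbers, 8 members passed with KLF5, 2 with plko and 0 with RBPJ, NFIB or FOXA1. The numbers do not pair the libraries, since deviations of like-numbered libraries correlated between -0.19 and 0.22, above 0.1 in 3 of 28 pairs. Depth limits INTS2 and INTS9 most, with no read in some libraries.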
